A study of Mus musculus with 18 samples.

Results

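A partially reprogrammed mouse induced pluripotent stem (iPS) line, EOS3F-24, was compared with 2 fully reprogrammed lines, EOS3F-28 and EOS3F-29. The comparison used the 3 EOS3F-24 arrays cultured without 2i and the 6 arrays of the full lines (3 each), 9 of the 18 arrays of the series, and the samples were chosen by their titles alone. Each difference was the EOS3F-24 mean minus the average of the EOS3F-28 and EOS3F-29 means, so that both full lines counted equally. All 3 lines came from fibroblasts of CD1 mouse embryos (MEFs) infected with pMX retroviruses for Oct4, Klf4 and Sox2. They were grown on arrested feeder cells with LIF, a cytokine that sustains mouse pluripotent cells, and were held in puromycin at 1 μg/mL. The other 9 arrays, 3 for each group, held EOS3F-24 converted in 2i (inhibitors of MEK and GSK, at 2 and 12 μM in that order), J1 embryonic stem (ES) cells and the CD1 MEFs, and are used here only to place a level. The converted cells were also held in puromycin at 1 μg/mL, while none is given for J1 cells and MEFs.

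The partial state was represented by 1 line and the full state by 2 lines, each a clone, so the degree of reprogramming and the identity of the line cannot be told apart. The labels do not state whether the replicates of a line were grown separately, and the p-values then cover only the spread from array to array, and that spread may be technical. The cultures held feeder cells as well as iPS cells, and in such bulk RNA fewer cells of a type and less RNA per cell cannot be told apart. For the 3 introduced factors a probe set may pick up viral transcript besides the endogenous one. Values are log2 array values per probe set, a difference of 1 being a 2-fold change. Errors of group means are SD (n = 3 arrays for EOS3F-24, n = 6 for the full lines together), errors of differences are SE, and adjusted p-values are from limma.

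Reprogramming replaces the fibroblast programme by a self-sustaining network of transcription factors in which Oct4, Sox2 and Nanog bind each other's genes and those of cofactors such as Esrrb and Zfp42. Fully reprogrammed mouse cells also silence the retroviruses that started the process and express the de novo DNA methyltransferases, Nodal signalling genes and some germline genes of ES cells. Partially reprogrammed lines have lost much of the fibroblast programme and grow as colonies, but have not switched on the whole endogenous network.

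The 9 arrays had medians of 3.95 to 4.10. Replicates of 1 line correlated over genes at 0.974 to 0.987, and arrays of EOS3F-24 with arrays of the full lines at 0.953 to 0.972. Of 19937 genes, 3702 (18.6%) differed at an adjusted p under 0.05 and are termed called: 2549 (12.8%) were higher and 1153 (5.78%) lower in EOS3F-24. That split depended on the scaling, since cyclic loess normalization gave 3426 calls, 1812 higher and 1614 lower, or 52.9% higher in place of 68.9%. A called difference of at least 2-fold was found for 585 genes (2.93%), of which 329 (1.65%) were higher and 256 (1.28%) lower in EOS3F-24. The majority turned over under loess, with 271 higher and 305 lower, while housekeeping centring gave 425 higher and 219 lower. EOS3F-24 was called in the same direction against each full line separately for 2084 genes (10.5%), among them 557 of the 585. The 3 EOS3F-24 arrays did not overlap the 6 full-line arrays for 3780 genes (19.0%). Without EOS3F-24 replicate 2 the called genes numbered 2380 and those called against both lines 1330.

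**Figure D1:**
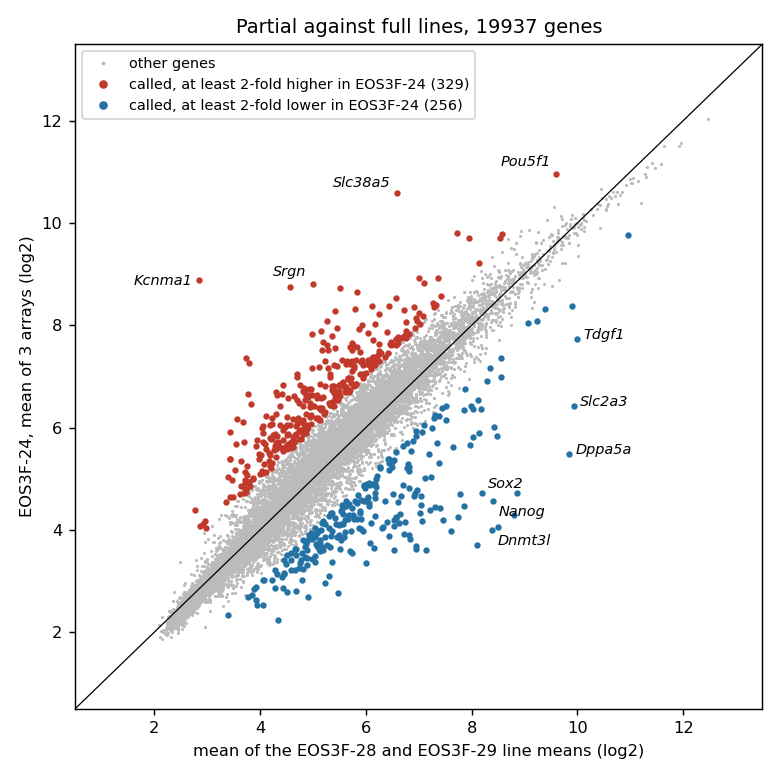
Mean log2 value in EOS3F-24 (y axis, 3 arrays) against the mean of the EOS3F-28 and EOS3F-29 line means (x axis, 6 arrays) for 19937 genes. Red points are the 329 genes called at least 2-fold higher and blue points the 256 called at least 2-fold lower in EOS3F-24, and the black line marks equal values.

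The introduced factors behaved differently from each other. Pou5f1, which encodes Oct4, stood at 10.61, 11.02 and 11.24 on the EOS3F-24 arrays, against 9.93, 10.13 and 10.06 in EOS3F-28 and 8.88, 9.19 and 9.36 in EOS3F-29. Every EOS3F-24 array was above every full-line array, and the difference was 1.36 ± 0.14 (adjusted p = 1.47e-06). Klf4 read 7.12, 7.09 and 6.61 in EOS3F-24, against 6.57 to 6.97 in EOS3F-28 and 6.69 to 6.73 in EOS3F-29, so that the groups overlapped and the difference of 0.21 ± 0.14 was not called (adjusted p = 0.364). Sox2 read 4.34, 4.71 and 5.08 in EOS3F-24, against 7.81, 8.52 and 8.03 in EOS3F-28 and 7.97, 8.56 and 8.34 in EOS3F-29. The lowest full-line array exceeded the highest EOS3F-24 array by more than 2 units, and Sox2 fell by 3.49 ± 0.18 (adjusted p = 2.00e-10). High Oct4 with low Sox2 was thus found on each of the 3 EOS3F-24 arrays.

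Of 19 measured genes listed as pluripotency transcription factors, 14 were lower, 2 higher and 3 not called. The median difference was -1.52, against 0.01 over all genes. Nanog, the homeodomain factor of the naive network, read 4.17, 5.14 and 4.39 in EOS3F-24, against 8.09, 8.77 and 8.39 in EOS3F-28 and 8.04, 8.67 and 8.45 in EOS3F-29. It was the factor with the largest difference in the list (-3.84 ± 0.19, adjusted p = 2.31e-10). Zfp42, known as Rex1, averaged 3.62 ± 0.40 in EOS3F-24 and 6.96 ± 0.10 in the full lines (-3.34), and the orphan nuclear receptor Esrrb 3.89 ± 0.15 and 6.81 ± 0.28 (-2.92). Tfcp2l1 (-2.55), Sall4 (-2.24), Nr0b1 (-2.23), Klf2 (-1.57), Nr5a2 (-1.15) and Klf5 (-1.10) fell by less. In none of these 9 genes did an EOS3F-24 array reach a full-line array. The smallest called falls were in Prdm14 (-0.70) and Tbx3 (-0.59), and Tbx3 overlapped between the groups and was not called against EOS3F-28 (adjusted p = 0.27). Trp53bp1 (0.44), the other member called higher, is a DNA repair gene and not a transcription factor. Its call was lost without EOS3F-24 replicate 2 (adjusted p = 0.13), under loess (0.0786) and under housekeeping centring (0.165). It was not called against EOS3F-28 alone (0.0895). Foxd3 (-0.37) and Rarg (0.18) were not called.

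Cofactors and surface markers of pluripotent cells were lower still: 23 of 26 measured members fell, 0 rose, and the median difference was -1.91. Dppa5a, an RNA-binding protein abundant in ES cells, read 5.12, 5.75 and 5.56 in EOS3F-24, against 9.38, 9.82 and 9.55 in EOS3F-28 and 9.75, 10.22 and 10.37 in EOS3F-29 (-4.37 ± 0.25, adjusted p = 8.20e-10). Utf1, a chromatin-associated factor, averaged 4.71 ± 0.20 in EOS3F-24 and 8.85 ± 0.31 in the full lines (-4.14). Trh, which encodes thyrotropin-releasing hormone, had the largest fall of any gene that met the naming rule, from which predicted and clone-named genes are left out (4.29 ± 0.10 in EOS3F-24 and 8.81 ± 0.25 in the full lines, -4.51 ± 0.21). Dppa2 (-3.49) and Dppa4 (-2.59), paired chromatin factors, fell on their second probe sets too (-2.85 and -3.07). Tdgf1, the Nodal co-receptor Cripto, was uneven within EOS3F-24 at 6.51, 8.26 and 8.43, against 9.55 to 10.41 in the full lines, and still did not overlap them (-2.25 ± 0.31, adjusted p = 4.18e-05).

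The Lin28 pathway was split. Lin28a, which blocks let-7 maturation, averaged 4.15 ± 0.44 in EOS3F-24 and 6.40 ± 0.10 in the full lines (-2.24 ± 0.14, adjusted p = 2.34e-09). Its paralog Lin28b was level at 4.65 ± 0.10 in EOS3F-24 and 4.66 ± 0.16 in the full lines (-0.01 ± 0.11, adjusted p = 0.976). L1td1, a LINE-1-derived RNA-binding protein of pluripotent cells, read 7.47, 7.94 and 8.03 in EOS3F-24 and 7.46 to 7.83 in the full lines (0.13 ± 0.22, adjusted p = 0.76), against 3.44 on average in MEFs. Trim71, a let-7 target and RNA-binding ubiquitin ligase, fell by 2.33. Fut4, the fucosyltransferase linked to the SSEA-1 epitope, was the third member not called (0.02).

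**Figure D2:**
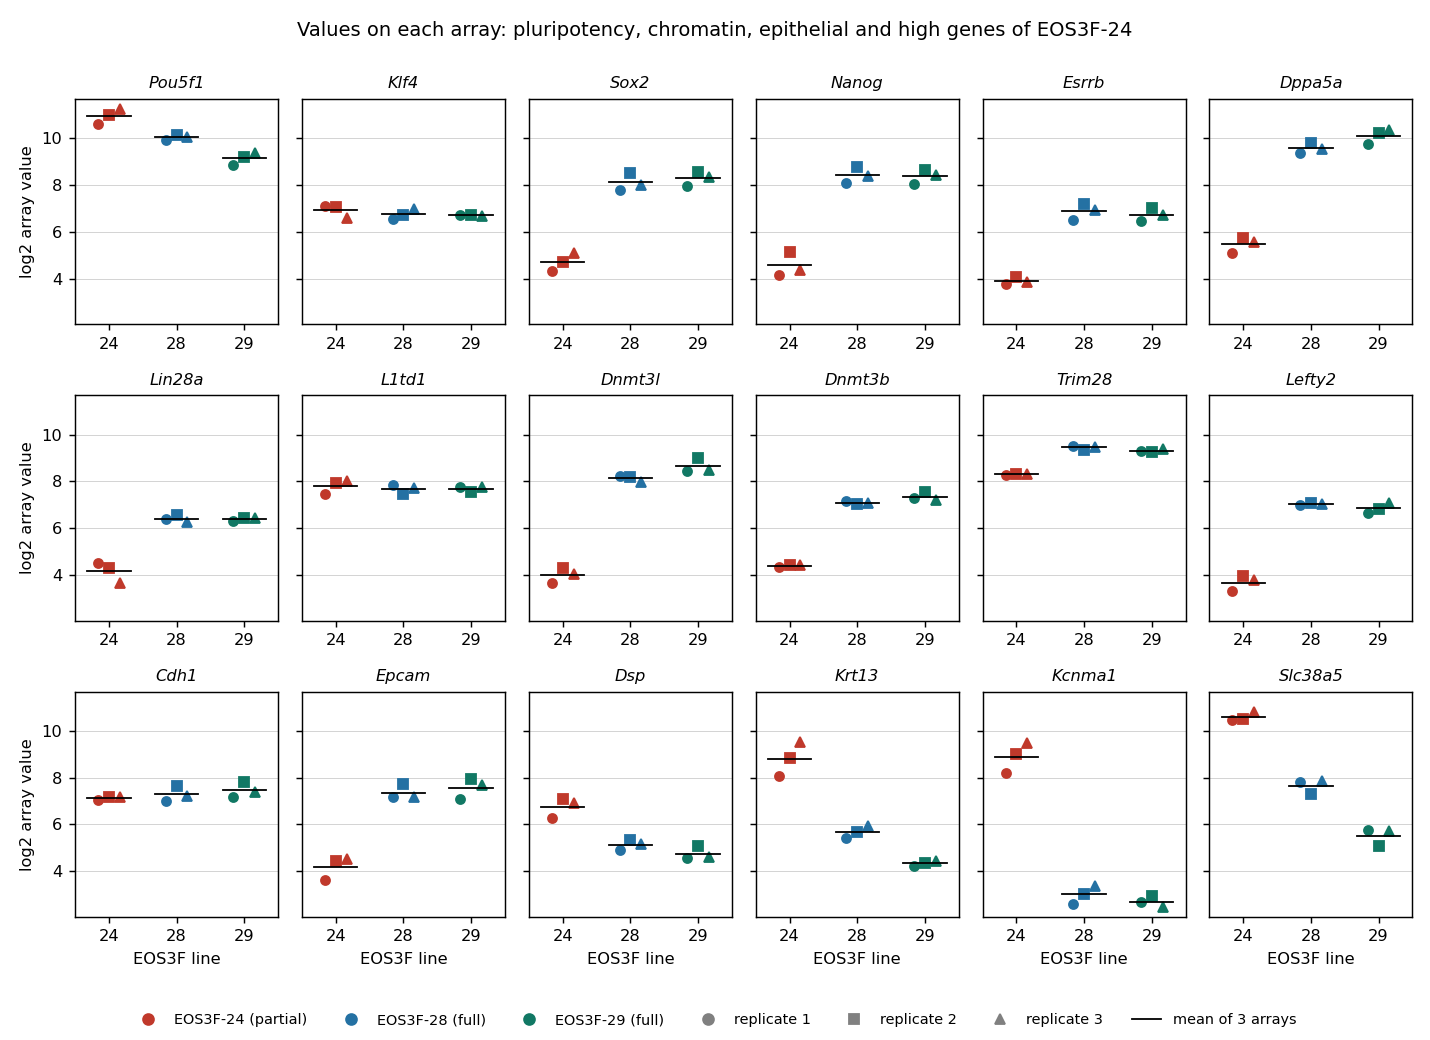
Log2 array value (y axis) on each array for 18 genes, with EOS3F-24 (24, red), EOS3F-28 (28, blue) and EOS3F-29 (29, green) from left to right; symbols mark replicate numbers and black bars the mean of 3 arrays. Klf4, L1td1 and Cdh1 overlap between EOS3F-24 and the full lines, while the 3 EOS3F-24 arrays lie apart from all 6 full-line arrays for the other 15 genes.

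Of 20 measured genes of the Nodal pathway, 7 were lower and 3 higher. Nodal, the ligand, read 4.16, 4.04 and 3.93 in EOS3F-24, against 5.79, 5.38 and 5.57 in EOS3F-28 and 6.08, 6.32 and 6.04 in EOS3F-29 (-1.82 ± 0.14, adjusted p = 4.24e-08). The ligand Gdf3 (-2.32) and the Nodal antagonists Lefty2 (-3.27) and Lefty1 (-2.65), which are also Nodal target genes, fell more than Nodal itself. The nuclear partner Foxh1 (-1.15) and the inhibitory Smad7 (-0.68) fell as well. The receptor genes Acvr1b (-0.03), Acvr1c (0.06), Acvr2a (0.28) and Acvr2b (-0.28) and the effectors Smad2 (0.08) and Smad3 (0.35) were not called. Tdgf1 was the other member called lower. The 3 called higher were the convertases Furin (0.69) and Pcsk6 (0.62), which process Nodal, and Smad4 (0.39). Smad4 lost its call under loess (adjusted p = 0.0683) and without EOS3F-24 replicate 2 (0.0932) or 3 (0.0523).

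Of 23 BMP pathway genes, 5 were higher and 2 lower, or 30.4% called against 18.6% over all genes. The ligand Bmp4 averaged 4.34 ± 0.12 in EOS3F-24 and 5.89 ± 0.69 in the full lines (-1.55 ± 0.24, adjusted p = 0.000135), with EOS3F-28 at 5.20, 5.21 and 5.38 below EOS3F-29 at 6.41, 6.48 and 6.64. Id1, a BMP target that blocks differentiation factors, read 6.93, 7.0 and 7.39 in EOS3F-24, against 5.24 to 6.05 in the full lines (1.37 ± 0.20, adjusted p = 0.000101), whereas Id2 (-0.71) and Id3 (-0.13) were not called. The receptors Acvr1 (0.72), Bmpr2 (0.68) and Bmpr1a (0.41) and the effector Smad5 (0.65) were the others called higher. Without EOS3F-24 replicate 1 or 2 the Bmpr2 call was lost (adjusted p = 0.0733 and 0.0562) and the count higher was 3, and without replicate 2 or 3 the count lower was 1.

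In the LIF and JAK-STAT3 list, 3 of 22 genes were higher and 5 lower. Stat3, the transcription factor that LIF activates, was slightly higher (7.45 ± 0.04 in EOS3F-24 and 6.90 ± 0.24 in the full lines, 0.55, adjusted p = 0.0058), a call lost under housekeeping centring (adjusted p = 0.062). The receptor Lifr was not called (-0.07), and the kinases Pim2 (-0.96) and Pim1 (-0.78), STAT3 target genes, fell. The Pim1 call was lost without EOS3F-24 replicate 1 or 3 or replicate 2 of either full line (adjusted p = 0.052 to 0.117). Without EOS3F-29 replicate 1 the count higher was 6, and without EOS3F-24 replicate 1, 2 or 3 the count lower was 2, 3 and 3. Of 28 FGF and ERK genes, 3 were higher and 5 lower, or 28.6% called against 18.6% over all genes. The ligands Fgf15 (-1.13), Fgf5 (-0.81) and Fgf4 (-0.65) and the feedback inhibitors Spry4 (-0.92) and Spry1 (-0.64) fell. The immediate early gene Fos (1.09) and the phosphatase Dusp4 (0.76) rose, and Dusp6, a common readout of ERK activity, was at -0.60 ± 0.22 (adjusted p = 0.0684).

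Of 34 Wnt pathway genes, 5 were lower and 2 higher, or 20.6% called against 18.6% over all genes. Lef1, a nuclear partner of β-catenin, read 3.70, 3.85 and 4.08 in EOS3F-24, against 5.16 to 5.84 in the full lines (-1.46 ± 0.14, adjusted p = 9.77e-07), and the secreted Wnt modulator Sfrp2 fell by 1.33. Tcf7l2, another β-catenin partner, rose by 0.60, and the target gene Axin2 was not called (-0.21). The count higher was 1 without EOS3F-28 replicate 2 or 3, EOS3F-29 replicate 3, or EOS3F-24 replicate 1 or 2, and the count lower was 3 without EOS3F-24 replicate 2. Markers of the primed epiblast, the later state that follows naive pluripotency in the embryo, were low rather than high. Of 18 measured, 8 fell and 0 rose, among them Otx2 (-2.80), Lef1, Fgf5, Eomes (-0.60) and Pou3f1 (-0.50). The 8 became 3 with genes of a mean under 5 left out.

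The de novo DNA methylation machinery was among the most affected chromatin groups. Dnmt3l, the catalytically inactive partner of the de novo enzymes, read 3.64, 4.30 and 4.06 in EOS3F-24, against 8.21, 8.20 and 7.98 in EOS3F-28 and 8.45, 9.0 and 8.50 in EOS3F-29 (-4.39 ± 0.16, adjusted p = 4.61e-12). Dnmt3b averaged 4.39 ± 0.05 in EOS3F-24 and 7.22 ± 0.18 in the full lines (-2.83), near the MEF mean of 4.04. Dnmt3a fell by 1.17, the methylcytosine oxidase Tet1 by 2.02 (by 2.12 and 2.27 on its other probe sets) and the helicase Hells by 1.20. The maintenance enzyme Dnmt1 (0.11) and its partner Uhrf1 (-0.17) were not called. In all, 6 of 17 members were lower and 4 higher, with the methyl-CpG binding protein Mbd2 (0.93) and Gadd45a (0.69) in front. Gadd45a lost its call under loess (adjusted p = 0.0814) and without EOS3F-24 replicate 2 or 3, EOS3F-28 replicate 1 or EOS3F-29 replicate 3 (0.0517 to 0.18).

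Genes that act in retroviral silencing and H3K9 methylation moved in smaller numbers, with 6 of 23 lower and 1 higher. The share called was 30.4%, against 18.6% over all genes. Trim28, the corepressor recruited to proviruses by zinc finger proteins, was tight in each group at 8.29, 8.32 and 8.33 in EOS3F-24, against 9.53, 9.35 and 9.47 in EOS3F-28 and 9.32, 9.26 and 9.38 in EOS3F-29 (-1.07 ± 0.15, adjusted p = 5.87e-05). Tasor, a subunit of the HUSH silencing complex, fell by 1.16, and the H3K9 demethylase Kdm4c by 1.06. Another HUSH subunit, Pphln1, rose by 0.75. Zfp809, which tethers Trim28 to murine leukaemia virus DNA, was at -0.26 (adjusted p = 0.193), and the methyltransferase Setdb1 at -0.06 (adjusted p = 0.744).

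Polycomb genes were also split by subunit. Of 29 measured, 12 were lower and 6 higher, and the 6 became 2 without EOS3F-24 replicate 1 or 3, 3 under loess and 2 under centring on housekeeping genes, where the 12 became 7. The PRC2 accessory subunits Jarid2 (-1.66) and Mtf2 (-1.39) and the PRC1 subunits Cbx7 (-1.39) and Phc1 (-1.16), all abundant in ES cells, fell most. Suz12 (-0.64) and Eed (-0.60) of the PRC2 core fell, and its catalytic subunit Ezh2 was not called (-0.28). Eed was at -0.065 on its second probe set, so its fall rests on 1 of 2 probe sets. Bmi1, a PRC1 subunit of somatic cells, read 6.97, 6.56 and 6.27 in EOS3F-24, against 5.27 to 6.22 in the full lines (0.95 ± 0.21, adjusted p = 0.00343). Of 27 subunits of BAF chromatin remodellers, 8 were higher and 2 lower, and the 8 became 4 without EOS3F-24 replicate 2, 5 under loess and 2 under housekeeping centring. The ATPase Smarca2 (Brm) averaged 6.40 ± 0.18 in EOS3F-24 and 4.94 ± 0.36 in the full lines (1.46, adjusted p = 1.11e-05), and its alternative Smarca4 (Brg1) rose by 0.36.

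Of 32 germline, piRNA and meiosis genes, which ES cells transcribe at low levels, 19 fell and 0 rose, with a median of -0.77. With genes of a mean under 5 left out of the test, 2 were lower. Tdrd12, a piRNA pathway helicase, averaged 3.60 ± 0.07 in EOS3F-24 and 6.54 ± 0.59 in the full lines (-2.94). The synaptonemal complex genes Syce2 (-2.45) and Sycp3 (-1.88) and the germ cell RNA helicase Ddx4 (-1.77) fell, and the range of Sycp3 in the full lines was wide (3.72 to 5.84, against 2.60 to 3.05 in EOS3F-24). The count higher was 1 without EOS3F-29 replicate 1 or EOS3F-24 replicate 1. Of 24 imprinted genes, 8 were lower and 2 higher. Peg10, a paternally expressed retrotransposon-derived gene, averaged 4.45 ± 0.23 in EOS3F-24 and 7.31 ± 0.38 in the full lines (-2.86), and Zdbf2 (-1.96), Phlda2 (-1.60) and Mest (-1.28) followed. Grb10, a growth factor receptor adaptor, rose by 1.02. Meg3, whose silencing marks some iPS clones, fell by 0.46. Without EOS3F-24 replicate 3 the count lower was 5, and without replicate 2 or 3 the count higher was 1.

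The array also carries probe sets for microRNA precursors, and the cluster of miR-302 and miR-367, which is transcribed in pluripotent cells, was examined after its values had been seen. The mature sequences are shown because several share a seed, the stretch that pairs with targets. They come from RefSeq on GRCm38.p6, where the cluster lies on the plus strand of chromosome 3, and capitals mark bases 2 to 8. miR-302b and miR-302d have the same seed, miR-302c the same letters shifted by 1 base, and miR-367 shares its seed with miR-363, which lies on the minus strand of the X chromosome beside miR-106a. miR-302a-3p is not shown.
miR-302b-3p: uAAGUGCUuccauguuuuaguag
miR-302d-3p: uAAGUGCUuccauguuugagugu
miR-302c-3p: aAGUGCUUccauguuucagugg
miR-367-3p: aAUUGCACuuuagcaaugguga
miR-363-3p: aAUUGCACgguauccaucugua
miR-106a-5p: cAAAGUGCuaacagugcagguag

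Mir302b read 2.34, 2.20 and 2.15 in EOS3F-24, against 5.05, 3.32 and 4.45 in EOS3F-28 and 5.25, 3.33 and 4.63 in EOS3F-29 (-2.11 ± 0.37, adjusted p = 0.000517). Mir302c (-1.41), Mir302d (-1.08), Mir302a (-1.06) and Mir367 (-0.85) were called lower as well. Mir302d overlapped between the groups, and its call was lost without EOS3F-24 replicate 2 (adjusted p = 0.068) or 3 (0.0523). In both full lines replicate 2 had the lowest value of all 5 precursors, so the spread there was wide. The means of Mir302b in converted, J1 and MEF cells were 2.81, 2.43 and 2.40, nearer to EOS3F-24 than to the full lines, and all of these values lie near the lower end of the array's range. On the X chromosome, Mir363 averaged 2.63 ± 0.18 in EOS3F-24 and 3.93 ± 0.53 in the full lines (-1.30 ± 0.13, adjusted p = 9.77e-07), and Mir106a (-0.57) and Mir19b-2 (-0.46) were called lower. Their neighbours Mir20b (-0.38, adjusted p = 0.0719) and Mir92-2 (-0.28, adjusted p = 0.129) were not called, although Mir20b was called without EOS3F-29 replicate 2 or EOS3F-24 replicate 1 (0.011 and 0.0395). The probe sets read the precursor transcript, and mature microRNA was not measured.

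**Figure D3:**
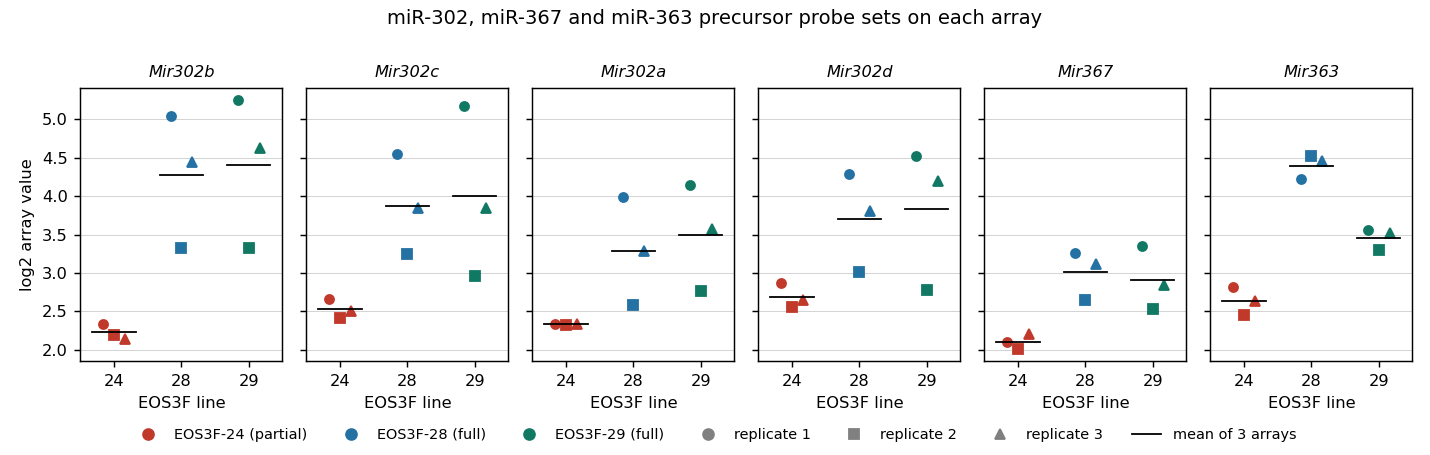
Log2 array value (y axis) of 6 microRNA precursor probe sets on each array, with EOS3F-24 (24), EOS3F-28 (28) and EOS3F-29 (29) from left to right, symbols for replicate numbers and bars for the mean of 3 arrays. All 3 EOS3F-24 arrays lie below 3, and replicate 2 is the lowest of both full lines for miR-302 and miR-367.

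Epithelial genes did not move as 1 group. E-cadherin, encoded by Cdh1 and gained early in reprogramming, read 7.05, 7.19 and 7.15 in EOS3F-24, against 7.0, 7.64 and 7.21 in EOS3F-28 and 7.18, 7.82 and 7.38 in EOS3F-29 (-0.24 ± 0.16, adjusted p = 0.374). Epcam, an adhesion molecule of epithelia and ES cells, read 3.62, 4.42 and 4.53 in EOS3F-24, against 7.17, 7.71 and 7.18 in EOS3F-28 and 7.08, 7.94 and 7.67 in EOS3F-29 (-3.27 ± 0.24, adjusted p = 3.09e-08). The tight junction genes Cldn6 (-2.87), Cldn4 (-2.01) and Cldn7 (-1.14) fell with it. So did the splicing regulator Esrp1 (-1.96), the transcription factor Grhl2 (-1.54) and the protease inhibitors Spint2 (-1.09) and Spint1 (-1.06). Desmosomal genes went the other way. Dsp, which encodes desmoplakin, read 6.28, 7.06 and 6.91 in EOS3F-24, against 4.54 to 5.32 in the full lines (1.82 ± 0.25, adjusted p = 4.18e-05). Perp (1.96), Dsc2 (0.72) and Dsg2 (0.50), the junction molecule F11r (0.99) and Esrp2 (0.71), the paralog of Esrp1, rose. In all, 13 of 32 junction genes were lower, 6 higher and 13 not called. The counts became 6 lower and 2 higher with genes of a mean under 5 left out.

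Of 41 genes of keratinocytes and squamous epithelium, 14 were higher and 0 lower, and the median was 0.17. With genes of a mean under 5 left out, 3 were higher. The list was drawn up with these results known, and its direction is no independent evidence. Krt13, a keratin of internal squamous epithelium, read 8.05, 8.82 and 9.53 in EOS3F-24, against 5.43, 5.67 and 5.95 in EOS3F-28 and 4.21, 4.36 and 4.41 in EOS3F-29 (3.79 ± 0.20, adjusted p = 5.02e-10). Ehf, an ETS factor of epithelia, read 7.05, 7.20 and 7.52 in EOS3F-24, against 3.91, 4.42 and 4.43 in EOS3F-28 and 3.23, 3.19 and 3.52 in EOS3F-29 (3.47 ± 0.14, adjusted p = 2.37e-11). Krtdap, a gene of keratinocyte differentiation, rose by 3.21 and the basal keratin gene Krt14 by 2.53. Tgm3 (2.49), Dsg3 (1.81), Krt1 (1.70), Krt6b (1.60), Pkp1 (1.59), Aqp3 (1.58) and Krt16 (1.22) completed the members that rose at least 2-fold. The groups overlapped for Tgm3 and Krt6b, whose EOS3F-28 values reached 7.46 and 5.24, against lowest EOS3F-24 values of 7.25 and 4.99. Among the 27 members not called were other genes of the basal and cornified layers. They included Trp63 (0.20), the master regulator of stratified epithelium, Krt5 (0.13), the partner of Krt14, and Ivl (-0.07), which encodes involucrin. Without EOS3F-24 replicate 2 the count lower was 1.

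Of 7 simple keratins, Krt19 (2.81) and Krt20 (0.67) were higher and Krt18 (-0.94) lower. In each line Krt19 was lowest in replicate 1, at 7.09, 9.27 and 9.56 in EOS3F-24, against 5.02, 7.34 and 6.19 in EOS3F-28 and 4.23, 6.50 and 5.72 in EOS3F-29, and the groups overlapped. Krt20 lost its call without EOS3F-24 replicate 3 (adjusted p = 0.0524). Krt8, the usual partner of Krt18, was at 0.22 (adjusted p = 0.568).

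**Figure D4:**
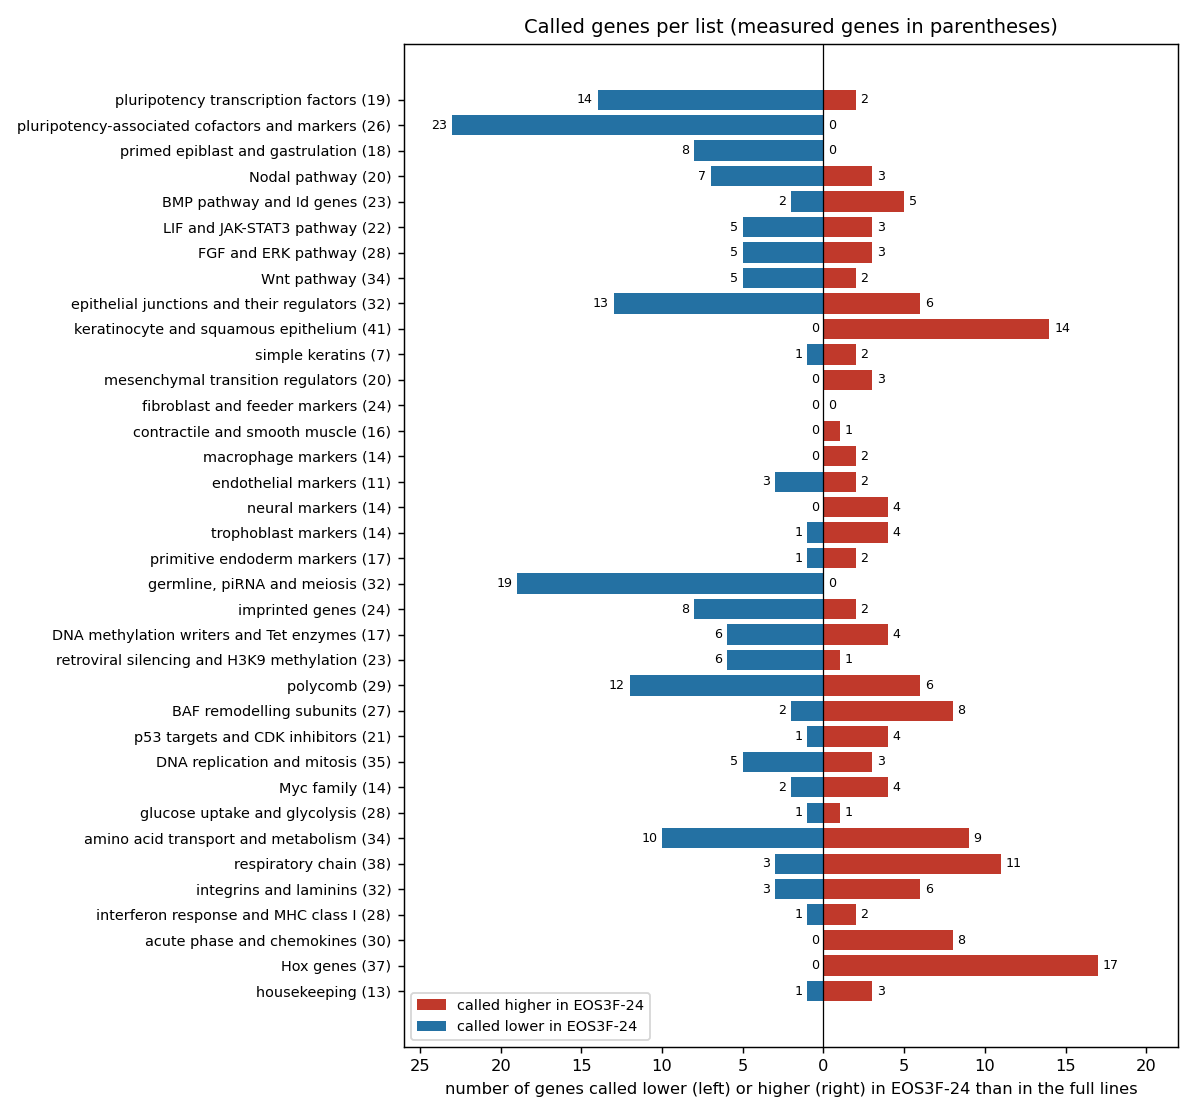
Number of genes called higher (red, right) or lower (blue, left) in EOS3F-24 than in the full lines for each of 36 gene lists, with the number measured in parentheses. The longest bars to the left belong to cofactors and markers (23), germline genes (19), pluripotency transcription factors (14), epithelial junctions (13) and polycomb (12), and those to the right to Hox genes (17), keratinocyte genes (14) and the respiratory chain (11); lists can share genes.

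The largest rise was in Kcnma1, the large-conductance calcium-activated potassium channel. It read 8.17, 9.01 and 9.49 in EOS3F-24, against 2.60, 3.04 and 3.38 in EOS3F-28 and 2.67, 2.92 and 2.48 in EOS3F-29 (6.04 ± 0.29, adjusted p = 1.43e-10). Its second probe set was at -0.06, so the rise rests on 1 of 2 probe sets. Srgn, a proteoglycan core protein of secretory granules, read 7.54, 9.51 and 9.22 in EOS3F-24, against 4.07 to 5.56 in the full lines (4.20 ± 0.33, adjusted p = 8.06e-08). Cyp2b23 (3.63) and Clec2g (2.89) belong to gene families with near-identical members, so the source of their signal is uncertain. The sialyltransferase St3gal6 (2.88) and the mucin-type glycosyltransferase Gcnt3 (2.84), the guanine deaminase Gda (2.72), the carbonic anhydrase Car2 (2.44), the mesothelial surface protein gene Msln (2.49), the urothelial tetraspanin Upk1b (2.43) and the TNF family ligand Tnfsf9 (2.41) were among the 20 largest rises. Crybg1 rose by 2.82 on 1 probe set and was at 0.14 on the other.

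Amino acid genes changed in both directions, with 10 of 34 lower and 9 higher, and with 4 lower and 8 higher under housekeeping centring. The glutamine transporter Slc38a5 read 10.47, 10.48 and 10.79 in EOS3F-24, against 7.80, 7.28 and 7.86 in EOS3F-28 and 5.77, 5.09 and 5.69 in EOS3F-29 (4.0 ± 0.18, adjusted p = 6.59e-11). Its relative Slc38a4, an imprinted transporter gene, went the opposite way at 3.98, 4.20 and 3.74 in EOS3F-24, against 7.0 to 8.32 in the full lines (-3.64 ± 0.35, adjusted p = 8.24e-07). The cystine transporter Slc7a11 (1.96) and Cth (1.74), which makes cysteine from cystathionine, rose, while Cbs, the enzyme before Cth in that route, fell by 0.68. The cationic amino acid transporter Slc7a3 fell by 2.11 and Slc7a7 by 1.54, whereas Slc7a1 rose by 0.61. Gldc, the glycine cleavage enzyme on which pluripotent cells draw for one-carbon units, averaged 3.83 ± 0.12 in EOS3F-24 and 6.83 ± 0.32 in the full lines (-3.00 ± 0.15, adjusted p = 2.82e-10).

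Of 28 genes of glucose uptake and glycolysis, 1 was lower and 1 higher, or 7.14% called against 18.6% over all genes. Both of the called genes were transporters. Slc2a3, which encodes the glucose transporter GLUT3, read 6.02, 6.76 and 6.47 in EOS3F-24, against 9.32, 10.65 and 9.71 in EOS3F-28 and 9.18, 10.70 and 10.01 in EOS3F-29 (-3.51 ± 0.33, adjusted p = 5.95e-07). Slc2a6 rose by 1.19, and Slc2a1, which encodes GLUT1, was at -0.66 (adjusted p = 0.0822). Glycolytic enzymes such as Pkm (-0.26), Ldha (-0.13) and Hk2 (0.36) were not called. The count higher was 2 without EOS3F-29 replicate 2 and 4 without EOS3F-24 replicate 1, and the count lower was 2 without EOS3F-29 replicate 1. Of 38 respiratory chain genes, 11 were higher and 3 lower, none by 2-fold, with Ndufa8 (0.70), Sdhb (0.67) and Ndufa2 (0.58) in front. Sdhb lost its call without EOS3F-24 replicate 3 (adjusted p = 0.0987). The 11 became 7 and 5 without EOS3F-24 replicate 2 and 3, 6 under loess and 3 under housekeeping centring. The 3 became 1 without replicate 2 of either full line or EOS3F-24 replicate 2 or 3, and 0 without EOS3F-24 replicate 1.

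The Myc family exchanged members. Myc, which was not among the introduced factors, read 8.08, 8.78 and 8.74 in EOS3F-24, against 7.01, 7.21 and 7.01 in EOS3F-28 and 6.58, 5.54 and 6.09 in EOS3F-29 (1.96 ± 0.35, adjusted p = 0.00061). Mycn, its paralog in ES cells, read 4.11, 4.61 and 4.67 in EOS3F-24, against 8.08, 7.61 and 8.01 in EOS3F-28 and 7.92, 7.89 and 7.65 in EOS3F-29 (-3.40 ± 0.23, adjusted p = 1.05e-08). Max, the partner of both, was 0.41 higher. Mxd4 (0.66) and Mxi1 (0.50) rose by more than Max, and both calls were lost under loess (adjusted p = 0.0695 and 0.0807). Mga fell by 0.59, a call lost under housekeeping centring (adjusted p = 0.173). Of 14 family genes, 4 were higher and 2 lower. The 4 became 2 and 1 without EOS3F-24 replicate 2 and 3, and the 2 became 1 without EOS3F-28 replicate 3 or any EOS3F-24 array.

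Of 35 genes of DNA replication and mitosis, 5 were lower and 3 higher, and the 5 became 9 under loess and 3 under housekeeping centring. The share called was 22.9%, against 18.6% over all genes. Mybl2, a cell cycle and pluripotency-associated factor, fell by 1.81, cyclin E1 (Ccne1) by 1.19 and the helicase subunit Mcm3 by 0.80, while cyclin E2 (Ccne2) rose by 0.86 and Mki67 by 0.75. Mki67 lost its call without EOS3F-24 replicate 2 (adjusted p = 0.0702) or 3 (0.0698), and Mcm3 was not called against EOS3F-29 (0.114). The count lower was 8 without EOS3F-29 replicate 1. Of 21 p53 targets and CDK inhibitors, 4 were higher and 1 lower, or 23.8% called against 18.6% over all genes. Perp led the rises, followed by Cdkn2c (0.65), and Cdkn2a, which encodes p16 and p19 and opposes reprogramming, was at 0.49 (adjusted p = 0.0935). The lower gene, Cdkn1c (-0.79), lost its call without EOS3F-24 replicate 3 (adjusted p = 0.0701).

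Of 37 Hox genes, which pattern the body axis and are held silent in ES cells by polycomb, 17 were higher and 0 lower, none by 2-fold, with a median of 0.25. Hoxa9 read 5.20, 5.06 and 4.86 in EOS3F-24, against 3.85 to 4.34 in the full lines (0.93 ± 0.11, adjusted p = 8.35e-06). Hoxc8 (0.82) and Hoxd13 (0.74) were next, and the 17 became 9 under housekeeping centring and 1 with genes of a mean under 5 left out. Hox levels in EOS3F-24 were low throughout, the mean over the 37 genes being 4.33 to 4.41 on its arrays, against 3.96 to 4.18 on the full-line arrays.

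Among 32 integrin and laminin genes, 6 were higher and 3 lower, or 3 and 1 with genes of a mean under 5 left out. The share called was 28.1%, against 18.6% over all genes. Lama3 (1.99) and Itgb4 (1.39), which encode parts of laminin-332 and of its hemidesmosome receptor, rose, whereas their partners Lamb3 (0.12) and Itga6 (0.30) were not called. Lama4 rose by 1.25, while Lama1, the laminin chain of the early embryo, fell by 1.01. Nid2, a basement membrane protein, averaged 4.33 ± 0.10 in EOS3F-24 and 7.03 ± 0.38 in the full lines (-2.70). Of 30 acute phase and chemokine genes, 8 were higher (3 with genes of a mean under 5 left out) and 0 lower, or 26.7% called. The NF-kB inhibitors Nfkbia (1.32) and Tnfaip3 (1.19), both NF-kB targets, were separated between the groups on all arrays. Saa3 was steady at 9.74, 9.82 and 9.83 in EOS3F-24, against 8.79, 6.69 and 7.69 in EOS3F-28 and 9.61, 6.20 and 7.32 in EOS3F-29 (2.08 ± 0.69, adjusted p = 0.0418). The Saa3 call was lost under loess (adjusted p = 0.0568) and without any 1 of 7 arrays, which were all 3 of EOS3F-24 and replicates 2 and 3 of each full line (0.0698 to 0.124). The 8 became 5 without any 1 EOS3F-24 array, and the count lower was 1 without EOS3F-29 replicate 3. Of 28 interferon response and MHC class I genes, 2 were higher and 1 lower, or 10.7% called against 18.6% over all genes. Without 1 array these 2 counts ran from 1 to 5 (5 without EOS3F-29 replicate 1) and from 0 to 2 (2 without EOS3F-29 replicate 3). Of the 13 housekeeping genes 30.8% were called. Gusb (0.65), Ywhaz (0.45) and Sdha (0.31) were higher and Ppia (-0.34) lower, and the Ppia and Sdha calls were each lost without any 1 of 6 arrays.

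Markers of other cell types were checked against the same arrays. None of 24 fibroblast and feeder markers was called by limma in either direction, and 2 were called higher without EOS3F-29 replicate 1. Col1a2 read 9.97, 8.83 and 8.30 in EOS3F-24, against 9.82, 8.08 and 9.16 in EOS3F-28 and 10.24, 8.69 and 8.94 in EOS3F-29. Replicate 1 had the highest value of its line for 24, 23 and 24 of these 24 genes in EOS3F-24, EOS3F-28 and EOS3F-29. The mean over the list was 6.13 to 7.37 in EOS3F-24 and 5.92 to 7.64 in the full lines. With all replicate 1 arrays left out, the 2-fold calls numbered 806 in place of 585. Of 20 mesenchymal regulators, 15% were called, against 18.6% over all genes. The 3 called were higher (Cdh2 0.83, Tgfb1 0.59 and Tgfb2 0.57), and 6 were higher without EOS3F-29 replicate 1. Without that array or EOS3F-24 replicate 1 the count lower was 1, and Tgfb2 lost its call without EOS3F-24 replicate 1 or 2 (adjusted p = 0.0905 and 0.113). Of 16 contractile genes, 6.25% were called, with Actg2 higher (1.32).

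Of 14 macrophage markers 2 were higher, Laptm5 (1.00) and Cd14 (0.80), while the defining genes Ptprc (-0.03), Csf1r (-0.12) and Adgre1 (-0.12) were not called, and the mean over the list was 3.86 to 4.0 in EOS3F-24 and 3.82 to 3.96 in the full lines. Of 11 endothelial markers 2 were higher, Esam (1.45) and Tek (1.39), and 3 were lower by less than 0.4, or 1 without EOS3F-24 replicate 1 or 2, with Cdh5 (-0.06) and Kdr (0.01) not called. Of 14 neural markers 4 were higher, Fabp7 (2.02), Stmn2 (1.75), Ncam1 (1.24) and Map2 (0.68), with Pax6 (0.16) and Sox1 (0.18) not called. Of 14 trophoblast markers 4 were higher, led by Gata3 (0.94), Tead4 (0.75) and Cdx2 (0.54), and Eomes was lower. Cdx2 lost its call without EOS3F-24 replicate 2 (adjusted p = 0.0682). Of 17 primitive endoderm markers Dab2 (1.39) and Gata6 (0.90) were higher and Lama1 lower, with Gata4 (-0.03) and Sox17 (0.15) not called. The second probe set of Dab2 was at 0.11. The shares called of the macrophage, endothelial, neural, trophoblast and primitive endoderm lists were 14.3%, 45.5%, 28.6%, 35.7% and 17.6%, against 18.6% over all genes. Without genes of a mean under 5, the counts higher were 1 macrophage, 0 endothelial, 2 neural, 1 trophoblast and 1 primitive endoderm. The counts lower were then 0 for the endothelial, trophoblast and primitive endoderm lists. The part of cells of these types in the other differences was not tested.

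Sex-linked genes separated the lines too. Xist, the RNA that coats an inactive X chromosome, averaged 7.05 ± 0.20 in EOS3F-24 and 5.32 ± 0.43 in the full lines (1.72 ± 0.20, adjusted p = 6.68e-06). The Y-linked genes Eif2s3y (4.02 ± 0.23 in EOS3F-24 and 5.90 ± 0.37 in the full lines, -1.88) and Uty (-0.87) were lower. With 1 partial line, a difference in sex chromosomes between lines and the degree of reprogramming cannot be told apart. The MEFs read high for both kinds of gene, with means of 6.90 for Xist and 5.98 for Eif2s3y.

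The full lines were not alike in the genes that were high in EOS3F-24. Between EOS3F-28 and EOS3F-29, 106 genes (0.532%) were called, 60 of them (0.301%) higher in EOS3F-28, and 197 with the replicate number as a block, which the deviations of these lines pair. Of the 329 genes called at least 2-fold higher in EOS3F-24, 287 (87.2%) were higher in EOS3F-28 than in EOS3F-29, 42 of them called, and 0 were called the other way. The share over all genes was 39.4%. Of the 256 genes called at least 2-fold lower, 106 (41.4%) were higher in EOS3F-28, and 9 were called in either direction. Among the 20 largest rises 19 had the higher mean in EOS3F-28, 13 of them called, and among the 20 largest falls 8 did, 0 of them called.

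Krtdap showed this order most plainly: it read 8.35, 9.02 and 8.81 in EOS3F-24, against 6.90, 6.70 and 6.87 in EOS3F-28 and 4.15, 4.03 and 4.42 in EOS3F-29. No array of 1 line overlapped those of another. Gcnt3 read 7.67, 8.38 and 7.44 in EOS3F-24, against 6.19, 6.08 and 6.08 in EOS3F-28 and 3.86, 3.88 and 3.83 in EOS3F-29. The difference between EOS3F-28 and EOS3F-29 was 2.63 for Krtdap, 2.26 for Gcnt3, 2.14 for Crybg1, 2.13 for Slc38a5, 1.73 for Car2, 1.67 for St3gal6 and 1.65 for Msln. Kcnma1, Cyp2b23, Tmem45b and Upk1b did not follow this order beyond the spread, with EOS3F-28 means of 3.01, 3.60, 3.52 and 3.68, against 2.69, 3.86, 3.35 and 3.67 in EOS3F-29. Srgn (0.47), Krt14 (1.83) and Tnfsf9 (0.98) were higher in EOS3F-28, but limma did not call these differences (adjusted p = 0.723, 0.155 and 0.136).

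**Figure D5:**
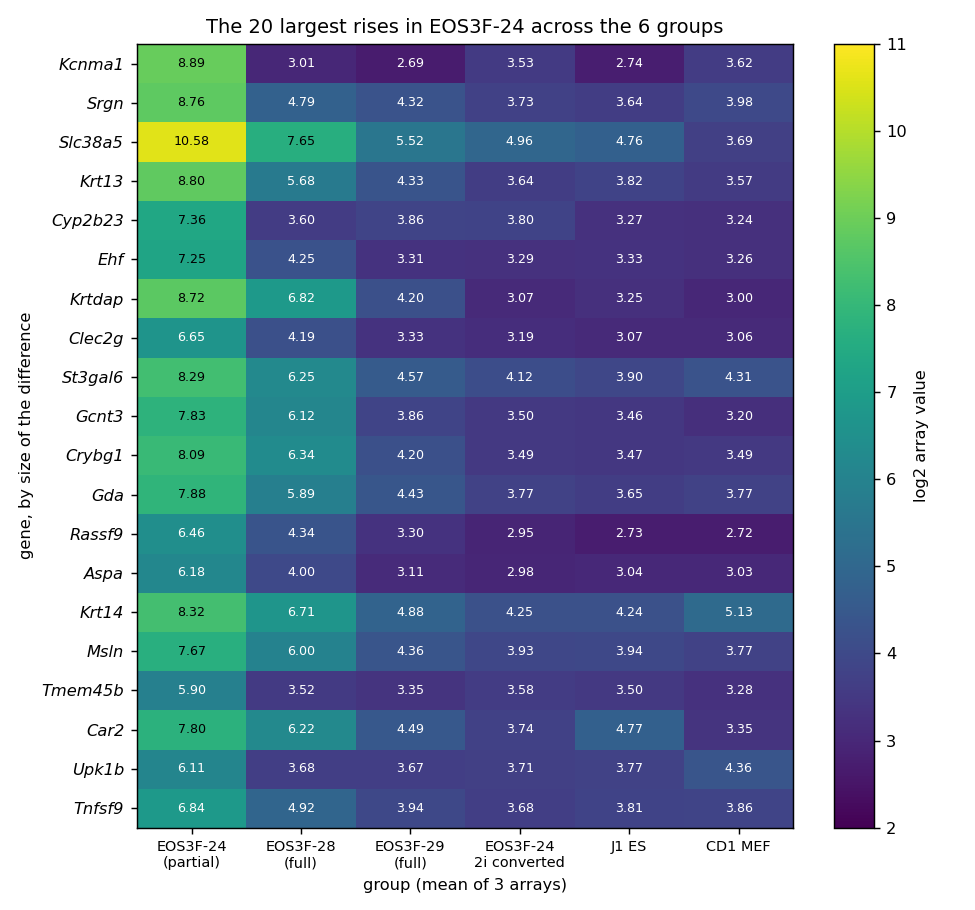
Mean log2 array value (colour and printed number, 3 arrays per group) of the 20 genes with the largest rises in EOS3F-24, in the partial line, both full lines, 2i converted EOS3F-24, J1 ES cells and CD1 MEFs. EOS3F-24 is highest in every row, which the choice of genes favours. EOS3F-28 lies above EOS3F-29 in 19 of the 20, for Krtdap at 6.82 against 4.20.

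The other groups place these levels. For all 20 largest falls every 2i converted array lay above the highest EOS3F-24 array, and for all 20 largest rises every converted array lay below the lowest EOS3F-24 array. These genes were chosen for extreme values on the same EOS3F-24 arrays, which favours such counts. Among the 20 rises the converted mean was below the EOS3F-29 mean in 17, and the J1 mean was below the EOS3F-29 mean in 15. EOS3F-24 exceeded every MEF array in all 20 rises. Of the 20 largest falls, 19 had a MEF mean below the lowest full-line array, Slc38a4 (7.04 in MEFs) being the other. Nanog averaged 4.57 in EOS3F-24 and 3.42 in MEFs, and Dnmt3l 4.0 in EOS3F-24 and 3.38 in MEFs.

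Promoters were searched because the 20 largest falls hold targets of Oct4 and Sox2 and the rises include keratinocyte genes. The 250 bases before each start in RefSeq's GRCm38.p6 table were read for 16 of the falls and 12 of the rises on both strands. The octamer ATGCAAAT was found in Zfp42 among the falls and Srgn among the rises, and in 1.81% of 27025 genes. An octamer-Sox composite (TTTGCAT, any 1 base, then ACAA), which can share bases with an octamer, was found in Nanog alone, and in 9 genes (0.0333%) overall. The AP-1 motif TGANTCA was found in 3 of the 12 rises, Krt13, Krtdap and Clec2g, in 0 of the 16 falls and in 7.82% of all genes. A match describes only the letters in this window, and neither binding nor an effect on the gene was tested. The first sequence holds the composite of Nanog (chr6:122707315-122707564, plus strand), the second the octamer of Zfp42 (chr8:43307010-43307259, minus strand, where it reads in reverse complement), and the last pair the AP-1 motifs of Krtdap (chr7:30787655-30787904, plus strand) and Krt13 (chr11:100120578-100120827, minus strand). Capitals mark the motif.
Nanog: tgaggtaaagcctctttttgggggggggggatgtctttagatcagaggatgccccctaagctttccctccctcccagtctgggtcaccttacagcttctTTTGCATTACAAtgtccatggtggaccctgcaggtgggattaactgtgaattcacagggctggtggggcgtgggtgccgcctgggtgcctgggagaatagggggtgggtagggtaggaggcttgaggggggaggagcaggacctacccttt
Zfp42: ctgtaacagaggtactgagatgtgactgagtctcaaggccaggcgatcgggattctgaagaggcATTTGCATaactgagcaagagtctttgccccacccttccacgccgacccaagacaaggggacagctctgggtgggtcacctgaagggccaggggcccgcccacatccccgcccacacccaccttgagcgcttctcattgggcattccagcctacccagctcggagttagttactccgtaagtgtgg
Krtdap: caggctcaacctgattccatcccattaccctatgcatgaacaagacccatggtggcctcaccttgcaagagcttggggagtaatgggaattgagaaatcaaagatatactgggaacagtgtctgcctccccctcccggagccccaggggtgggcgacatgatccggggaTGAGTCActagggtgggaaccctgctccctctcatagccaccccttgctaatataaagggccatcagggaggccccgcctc
Krt13: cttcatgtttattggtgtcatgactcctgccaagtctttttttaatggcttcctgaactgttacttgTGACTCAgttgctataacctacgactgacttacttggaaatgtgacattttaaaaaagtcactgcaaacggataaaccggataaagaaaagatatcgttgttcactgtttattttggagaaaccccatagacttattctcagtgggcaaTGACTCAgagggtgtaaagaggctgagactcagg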

How the data were processed

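Total RNA, extracted with RNeasy, was labelled as biotinylated sense target and measured on 18 whole-transcript mouse arrays, 3 for each of 6 groups. Per the submitters' processing notes the authors used RMA, whose version is not given in the sources used here, and the deposited log2 values, 1 per probe set and array, lay between 0.678 and 13.3. Of 34760 probe sets, 21640 had 1 gene symbol in the platform annotation, 1321 several and 11799 none. Each of 19937 genes, 954 of which had more than 1, was represented by its brightest probe set on average over 18 arrays. The number of arrays limits the precision.

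limma 3.58.1 in R 4.3.3 fitted 1 mean per group over all 18 arrays (12 residual degrees of freedom), and p-values were adjusted by Benjamini-Hochberg over all genes. The fit was tested on simulated data with known changes. Called means an adjusted p under 0.05. Deviations of same-numbered arrays from their group means correlated at 0.387, 0.296 and 0.136 between EOS3F-24 and EOS3F-29, at 0.542, 0.639 and 0.149 between EOS3F-28 and EOS3F-29, and at 0.380, 0.342 and -0.0694 between EOS3F-24 and EOS3F-28. The numbers were therefore taken to pair the first and second of these comparisons but not the combined one, and nothing in the labels says what they share. That pairing was loose, since EOS3F-24 replicate 3 correlated at 0.258 with EOS3F-29 replicate 2. Calls are from the fit without the block unless the block is named.

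Named were the 20 largest rises and the 20 largest falls among genes called at least 2-fold, called the same way against both lines and not overlapping, without predicted genes, the 3 largest called changes each way of each list, and a fixed set of factors. Further list members were named after their values were seen. The comparison, gene lists and members were chosen with earlier results of these data known. Alternatives were cyclic loess, centring on housekeeping genes, leaving out genes with a mean under 5, all or averaged probe sets, the 9 arrays alone, trended robust moderation, 1 full line, each array left out and the replicate number as a block. Sequences were read with Python 3.11.15 from RefSeq tables on GRCm38.p6.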

Additional observations from a re-analysis of the deposited data

Results flagged for a closer look

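Of the 175 genes named by rule, 15 differed from EOS3F-24 by unequal amounts in the full lines, by the test of EOS3F-28 against EOS3F-29 in the same limma fit (3 arrays each, Benjamini-Hochberg over all genes). Over all genes that test called 106, of which 60 were higher in EOS3F-28. The 15 are mostly large rises in EOS3F-24, so their shared direction, with the EOS3F-28 mean between EOS3F-29 and EOS3F-24, describes that choice of genes and not the 106. The log2 difference between EOS3F-28 and EOS3F-29 was 2.63 for Krtdap, 2.26 for Gcnt3, 2.14 for Crybg1, 2.13 for Slc38a5, 1.73 for Car2, 1.67 for St3gal6, 1.65 for Msln and 1.46 for Gda. It was 1.36 for Krt13, 1.06 for Stmn2, 1.03 for Rassf9, 0.94 for Ehf, 0.895 for Pou5f1, 0.88 for Aspa and 0.86 for Clec2g. Pou5f1 is the member of this group that was also an introduced factor, and its probe set may pick up viral transcript. With the replicate number as a block, each of the 15 was still called.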

How the results depend on the processing

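The 3702 genes called became 2274 without dim genes, where fewer genes were tested, 1737 under housekeeping centring, and 2380 to 4402 without 1 array (lowest without EOS3F-24 replicate 2, highest without EOS3F-29 replicate 1). The 585 called at least 2-fold became 342 without dim genes and 541 to 680 without 1 array. The 2084 called against both lines became 1274 without dim genes, 858 under housekeeping centring and 1330 to 2484 without 1 array. The 106 between EOS3F-28 and EOS3F-29 became 49 without dim genes, 32 in the fit of the 9 arrays and 43 to 127 without 1 array: 62, 43 and 43 without EOS3F-28 replicates 1, 2 and 3, and 53 and 55 without EOS3F-29 replicates 2 and 3. The alternatives for the last 2 counts were added after the data were seen, and the cause of the shifts was not tested. With the replicate block these counts were 4360, 591, 2632 and 197, EOS3F-24 against EOS3F-29 gave 3807 in place of 3120 genes and against EOS3F-28 3710 in place of 2912. For the 175 genes named by rule, 3058 of 3269 values kept their direction and side of the threshold, 211 lost the call, 30 of them under housekeeping centring and 14 under loess, and 0 reversed. Counts of list members moved by over 1.5 times in 208 of 1368 cases. Dim probe sets, such as those of the microRNA precursors, lie toward the lower end of the array's range. Whether their differences are understated was not tested.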

Other observations

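Probe sets that carry several gene symbols or none were left out of the comparison above. Of 13120 such probe sets, 634 were called between EOS3F-24 and the full lines, 44 of them at least 2-fold higher and 47 at least 2-fold lower in EOS3F-24. These calls were sparser than over the 19937 genes compared above. There 3702 (18.6%) were called, 329 (1.65%) at least 2-fold higher and 256 (1.28%) at least 2-fold lower. Both enzymes of serotonin synthesis were high in EOS3F-24, a pair picked after their values were seen: Tph1, tryptophan hydroxylase, was 2.32 log2 units higher and Ddc, aromatic amino acid decarboxylase, 2.29.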
